A study of Mus musculus with 6 samples.

Results

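The GABA-A receptor subunit genes described here are Gabra2, Gabra3, Gabra5, Gabra6, Gabrb1, Gabrb2 and Gabrd, a given list of names found by symbol. All 7 were present among the 24411 genes of each table, and all 7 passed the filter on low counts. They were measured by bulk RNA sequencing of mouse cerebellum at postnatal day 18. The libraries comprised 3 from wild-type mice (WT) and 3 from Atoh7 remote enhancer knockout mice (KO), which lack a distal element of this transcription factor gene best known from retinal ganglion cells. The protocol calls the replicates independent, while strain, sex and the number of animals behind each replicate are not given, so p-values measure only the spread between these samples. No other allele or treatment is named for either group.

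GABA-A receptors are chloride channels built from subunits of several families, and the subunit mix sets where a receptor sits and how it responds to GABA. Receptors with the alpha6 subunit (Gabra6) are a hallmark of cerebellar granule cells. Together with the delta subunit (Gabrd) they form receptors outside synapses that carry a steady inhibitory current. Receptors without the delta subunit usually carry a gamma subunit and gather at synapses, where scaffold proteins hold them opposite the terminals of Golgi cells, basket cells or stellate cells.

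The libraries held 46160747 to 51947647 reads, and 16340132 to 34438262 were assigned to genes. WT replicate 3 stood apart, with 63.2% of its gene reads on the ribosomal RNA precursor Rn45s and 6015125 reads on other genes, so that 1 read was worth 0.155 CPM (reads scaled by TMM library size) there and 0.0241 to 0.0309 CPM in the other libraries. The share of reads outside genes was 34.3% ± 3.59 in WT against 17.3% ± 0.291 in KO (SD, n = 3 each). The deposited file of KO replicate 3 abbreviates the genotype differently in its name than the other KO files, and its sample title was followed here. WT replicate 1 was the only library with a female pattern, with 31134 reads of Xist against at most 10 in the others. The tissue entry of the labels reads retina and the protocol reads cerebellum. The Purkinje cell gene Calb1 was at 409 to 618 CPM and the granule cell gene Cbln3 at 236 to 366 CPM, whereas the photoreceptor factor Crx had 0 reads in every library, where 3 reads correspond to 0.0723 to 0.465 CPM. Atoh7 itself was counted 72, 56 and 7 times in the WT libraries and 45, 54 and 92 times in the KO libraries (log2 fold change -0.18, adjusted p = 0.706 by edgeR), and since the deleted element is remote, this level does not check the genotype labels.

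Both subunit genes that changed between the genotypes are shown by the 250 bases before their RefSeq start on GRCm38.p6, the assembly that mm10 denotes, so that the sequence can be read beside their values. Capitals mark matches, on either strand, to the motif TTGGCA (the core recognised by nuclear factor I, a factor family of granule cells), to the motif CANNTG (the E-box read by basic helix-loop-helix factors) or to the motif TATAAA (the TATA box). The Gabra6 window lies at chr11:42321073-42321322 and the Gabra3 window at chrX:72656920-72657169, both on the minus strand.
Gabra6: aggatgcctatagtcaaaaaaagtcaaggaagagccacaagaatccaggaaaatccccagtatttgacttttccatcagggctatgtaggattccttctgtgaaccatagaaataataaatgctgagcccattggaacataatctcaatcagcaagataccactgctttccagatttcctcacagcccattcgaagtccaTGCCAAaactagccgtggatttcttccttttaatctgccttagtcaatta
Gabra3: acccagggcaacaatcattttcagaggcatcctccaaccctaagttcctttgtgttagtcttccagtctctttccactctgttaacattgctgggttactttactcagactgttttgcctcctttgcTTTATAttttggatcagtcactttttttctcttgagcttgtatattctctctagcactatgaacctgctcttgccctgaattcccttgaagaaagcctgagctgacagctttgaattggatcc
The Gabra6 window held 1 match to TTGGCA, which begins 50 bases before the start, and none of the other motifs. The Gabra3 window, at the first of its RefSeq starts, held 1 match to TATAAA, as its reverse complement TTTATA, and none of the others. RefSeq starts were matched for 6 of the 7 subunit genes (10 windows), and Gabra6 was the only one of them with a TTGGCA match. Among all 32851 windows of this length, 12.3% held TTGGCA, 66.2% held CANNTG and 12.4% held TATAAA. A match is a description of letters, not a site.

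Per kilobase of exon, Gabra6 was the most abundant of the 7 genes and Gabrb1 the least. In WT the level of Gabra6 was 115 ± 19.7 CPM per kb, that of Gabrb2 48.5 ± 0.965, that of Gabrd 11.3 ± 2.07 and that of Gabra3 10.5 ± 1.08 (SD, n = 3 each). Gabra5 followed at 5.97 ± 0.586, Gabra2 at 2.41 ± 0.0452 and Gabrb1 at 1.72 ± 0.0992 CPM per kb. Neighbours in this order had ranges over the 6 libraries that did not overlap, except Gabra3 and Gabrd. Gabra3 was above Gabrd in 5 of 6 libraries, with overlapping ranges. Lengths are those of all annotated exons, so a gene with long, rarely used ends would read lower than its main transcript. Gabrb1 had the longest exon length of the 7, at 13838 bases, and how much of it is used was not tested.

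**Figure D1:**
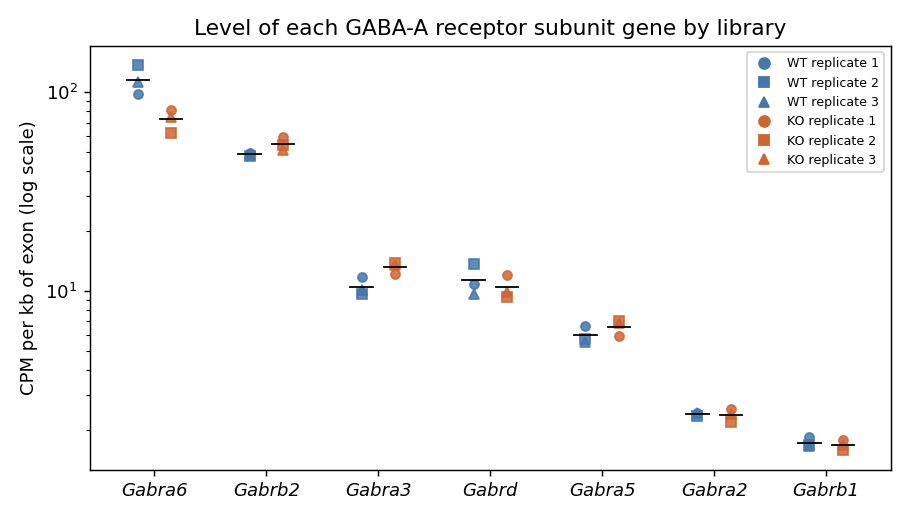
Level of each subunit gene in CPM per kb of exon (log scale) in the 3 WT (blue) and 3 KO (orange) libraries, with a bar at each group mean. Gabra6 lies above Gabrb2 in every library, but the distance is smaller in KO, where Gabra6 averages 72.6 and Gabrb2 54.8 CPM per kb.

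Of the 7 subunit genes, 1 fell in KO (Gabra6), 1 rose (Gabra3) and 5 did not pass the test, by edgeR quasi-likelihood F-test, Benjamini-Hochberg adjusted over all 15519 tested genes at a threshold of 0.05. Over all tested genes, 16.7% passed in either direction, 6.43% as higher and 10.2% as lower in KO. The median log2 fold change, KO minus WT, was -0.019 for the 7 genes and -0.0055 for all tested genes. The groups did not overlap in 3 of the 7 (Gabra6, Gabra3 and Gabrb2), against 39.4% of all tested genes. KO lay above WT in 2 of the 7 (18.9% of all tested genes) and below in 1 (20.5%).

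Gabra6 encodes the alpha6 subunit of granule cell receptors and lies on chromosome 11 (42306437 to 42321072, minus strand, GRCm38). Its level was 242, 338 and 278 CPM in WT (replicates 1, 2 and 3 in turn) against 202, 155 and 185 CPM in KO. Every KO library was below every WT library, and WT replicate 2 was the highest and KO replicate 2 the lowest. The mean was 286 ± 48.9 CPM in WT against 181 ± 23.8 in KO (SD, n = 3 each), so Gabra6 fell by 0.66 on the log2 scale (SE 0.14), to 0.631 of the WT level (adjusted p = 0.0157, edgeR quasi-likelihood F-test, Benjamini-Hochberg adjusted). This shift was larger in size than that of 93.8% of all tested genes. In bulk tissue, fewer granule cells and less Gabra6 RNA per granule cell cannot be told apart. The call was lost without WT replicate 3 (-0.68, adjusted p = 0.0795) and, narrowly, without KO replicate 3 (-0.68, adjusted p = 0.0511), both by edgeR, Benjamini-Hochberg adjusted, and the log2 value stayed between -0.78 and -0.52 when any 1 library was left out. With read assignment (reads outside genes relative to reads of genes other than Rn45s) as a covariate it was -0.71 (adjusted p = 0.250 by edgeR).

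Gabrd encodes the delta subunit, the partner of alpha6 outside synapses, and lies on chromosome 4 (155384980 to 155398112, minus strand). Its level was 31.0, 39.1 and 27.6 CPM in WT (replicates 1, 2 and 3 in turn) against 34.5, 26.8 and 28.3 CPM in KO. The groups overlapped, with WT replicate 2 highest and KO replicate 2 lowest, as for Gabra6. The means were 32.6 ± 5.94 and 29.9 ± 4.10 CPM (SD, n = 3 each), and the difference of -0.15 on the log2 scale (SE 0.13) did not pass (adjusted p = 0.475, edgeR, Benjamini-Hochberg adjusted). Its sign turned without WT replicate 2 (0.013), and with the covariate of read assignment its value was -0.41 (adjusted p = 0.311, edgeR), larger in size than without it.

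Gabrb2 encodes the beta2 subunit, which granule cells and Purkinje cells both use, and lies near Gabra6 on chromosome 11 (42419757 to 42629028, plus strand). Its level was 315, 302 and 309 CPM in WT (replicates 1, 2 and 3 in turn) against 377, 345 and 325 CPM in KO. Every KO library was above every WT library, with KO replicate 1 the highest. The means were 309 ± 6.14 and 349 ± 26.2 CPM (SD, n = 3 each), and the log2 fold change of 0.18 (SE 0.07) did not pass (adjusted p = 0.0996, edgeR, Benjamini-Hochberg adjusted).

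Gabra3 encodes the alpha3 subunit, a synaptic subunit known from Golgi cells in the cerebellum, and lies on chromosome X (72432681 to 72656848, minus strand). Its level was 45.7, 37.6 and 39.7 CPM in WT (replicates 1, 2 and 3 in turn) against 47.4, 54.3 and 52.7 CPM in KO. The groups did not overlap, but the female-pattern WT replicate 1 came close to KO replicate 1. Gabra3 rose 1.25 fold, from 41.0 ± 4.22 CPM in WT to 51.5 ± 3.65 in KO (SD, n = 3 each; log2 0.32 with an SE of 0.09, adjusted p = 0.0326, edgeR quasi-likelihood F-test, Benjamini-Hochberg adjusted). Without WT replicate 1 the log2 value was 0.42 (adjusted p = 0.0117, edgeR). The call was lost without WT replicate 2 (0.25, adjusted p = 0.127), KO replicate 2 (0.28, adjusted p = 0.127) or KO replicate 3 (0.31, adjusted p = 0.122), and with the covariate of reads outside genes (0.26, adjusted p = 0.289), all by edgeR, Benjamini-Hochberg adjusted.

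Beside Gabra3, 4 of 7 listed genes of Golgi and glycinergic cells rose by edgeR and 3 did not pass, against 6.43% of all tested genes higher. The risers, named after values were seen, were Glra1, Lgi2, Npy and Slc6a5. Those that did not pass were Gjd2 (log2 0.32), Sst (0.050) and Grm2 (-0.031). The summed level of the 7 was 237 to 251 CPM in WT and 300 to 320 CPM in KO. The part of these cells in the Gabra3 result was not tested.

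The remaining alpha and beta genes gave smaller differences. Gabra5, whose product forms receptors outside synapses in forebrain, lies on chromosome 7 (57407672 to 57510059, minus strand). It was at 19.7, 17.1 and 16.4 CPM in WT (replicates 1, 2 and 3 in turn) against 17.5, 20.8 and 20.4 CPM in KO. The groups overlapped through WT replicate 1 and KO replicate 1, and the log2 fold change of 0.13 (SE 0.10) did not pass (adjusted p = 0.419, edgeR, Benjamini-Hochberg adjusted). Gabra5 shares exon sequence with Gm9962 on the opposite strand, and counting without regard to strand gave it 582 in place of 679 reads in WT replicate 1, with a log2 fold change of 0.12. The value was 0.22 without WT replicate 1 and 0.21 without KO replicate 1, and did not pass in either case (adjusted p = 0.211 and 0.254, edgeR).

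Gabra2 (chromosome 5, 70957597 to 71095849, minus strand), an alpha subunit gene used widely in forebrain, was at 18.6, 18.01 and 18.6 CPM in WT (replicates 1, 2 and 3 in turn) against 19.5, 16.7 and 18.3 CPM in KO. The KO libraries lay on both sides of the WT libraries. The log2 fold change was -0.019 (SE 0.09; adjusted p = 0.906, edgeR, Benjamini-Hochberg adjusted), and its sign turned without KO replicate 2 (0.041). Gabrb1 (chromosome 5, 71658113 to 72149037, plus strand), a beta subunit gene of the same cluster, was at 25.4, 23.1 and 22.9 CPM in WT (replicates 1, 2 and 3 in turn) against 24.6, 21.8 and 23.2 CPM in KO. These groups overlapped too, and differed by -0.047 on the log2 scale (SE 0.08, adjusted p = 0.733, edgeR, Benjamini-Hochberg adjusted), and the sign turned without KO replicate 2 (3.3e-05) and without WT replicate 1 (0.0087). In WT replicate 3, the shallowest library, Gabra2, Gabra5 and Gabrb1 rested on 120, 106 and 148 reads. Reads on the strand opposite any of the 7 genes numbered 0 to 30 per library.

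**Figure D2:**
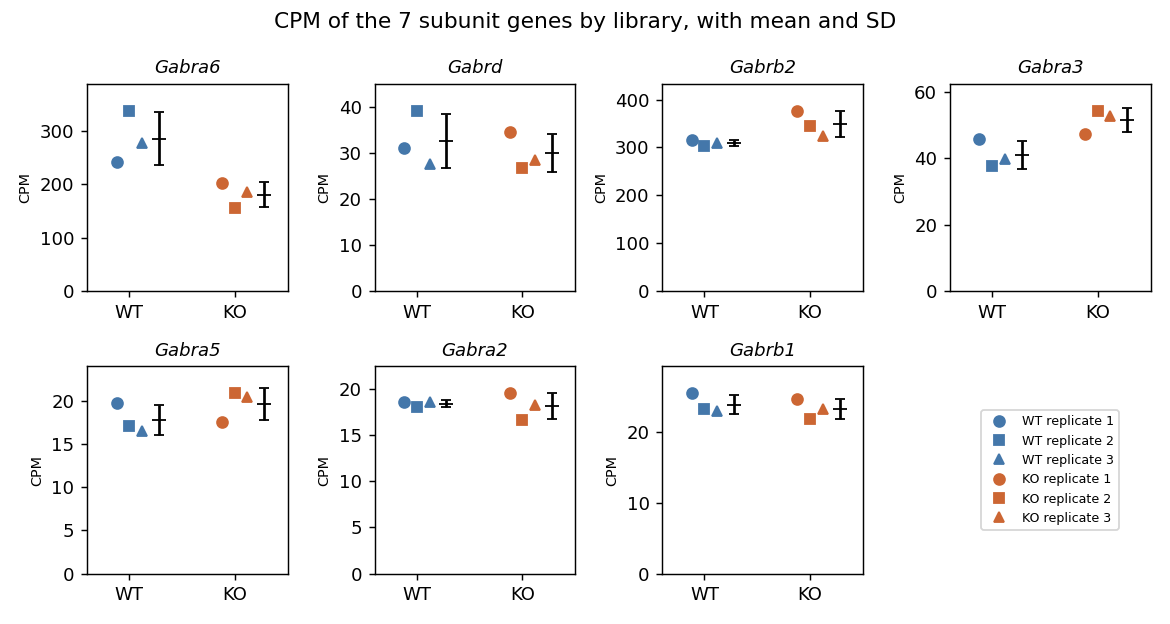
CPM of each of the 7 subunit genes in every library (y axes start at 0), with the group mean and SD (n = 3) drawn beside the points. Gabra6 is lower in all 3 KO libraries, Gabra3 and Gabrb2 are higher in all 3, and the groups overlap for Gabrd, Gabra5, Gabra2 and Gabrb1.

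The balance between subunit genes was compared by ratios of reads within each library, which need no scaling between libraries. There were 8.80 reads of Gabra6 per read of Gabrd in WT and 6.05 in KO, as the geometric means. The ratio was 7.79, 8.65 and 10.1 in WT (replicates 1, 2 and 3 in turn) against 5.85, 5.79 and 6.54 in KO, so the groups did not overlap. On the log2 scale the means were 3.14 ± 0.188 and 2.60 ± 0.0975 (SD, n = 3 each), a difference of -0.54. A two-sided exact permutation test gave p = 0.1, the smallest that 3 against 3 libraries allow, and adjusted p = 0.167 over 5 such comparisons, so none of the 5 could pass.

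For the chromosome 11 neighbours, Gabra6 had 0.918 reads per read of Gabrb2 in WT and 0.516 in KO. The log2 ratio was -0.12 ± 0.273 in WT and -0.95 ± 0.179 in KO (SD, n = 3 each), a difference of -0.83 without overlap (exact permutation p = 0.1, adjusted p = 0.167). In the chromosome 5 cluster, where Gabra4 lies between them, Gabra2 had 0.773 reads per read of Gabrb1 in WT and 0.781 in KO. Here the log2 ratio differed by 0.015 with overlapping groups (exact permutation p = 0.8, adjusted p = 1), and the sign turned without WT replicate 1 (-0.024).

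Gabra6 was also set against 18 other genes of granule neurons, by the difference between its log2 CPM and their mean. This difference was 0.75 ± 0.129 in WT and 0.26 ± 0.0967 in KO (SD, n = 3 each), lower by 0.48 in KO without overlap (two-sided exact permutation p = 0.1, adjusted p = 0.167). For Gabrd it was -2.39 ± 0.242 in WT and -2.33 ± 0.0224 in KO, with overlapping groups (exact permutation p = 1, adjusted p = 1), and the shift of 0.058 turned to -0.081 without WT replicate 3. Of the 18 granule neuron genes themselves, 3 fell and 2 rose by edgeR (10.2% and 6.43% of all tested genes), whereas 13 did not pass. All 18 enter the mean used above, which the 2 risers raise in KO and the 3 that fell lower. At an unadjusted p under 0.05 by edgeR, 8 were lower and 2 higher. A positive log2 fold change was seen in 3 of the 18, and the median of the 18 was -0.24. The summed level of the 18 was 3845 to 4616 CPM in WT and 3848 to 4649 CPM in KO. Snap25, the highest of them, rose within this sum from 990 ± 118 CPM in WT to 1306 ± 61.2 in KO (SD, n = 3 each). The sum therefore hides the negative log2 values of most of the 18. The smallest p-values belonged to Reln, a secreted guidance protein of granule cells (-0.42, SE 0.09), Snap25, a vesicle fusion protein of most neurons (0.40, SE 0.09), and Car4, a carbonic anhydrase (-0.50, SE 0.12), with adjusted p of 0.0110, 0.0172 and 0.0177 by edgeR, Benjamini-Hochberg adjusted. The Reln call was lost without KO replicate 2 or 3, that of Snap25 without WT replicate 2 or KO replicate 1 or 2, and that of Car4 without WT replicate 2 or KO replicate 2 or 3. The part of granule cell number in the Gabra6 result was not tested.

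**Figure D3:**
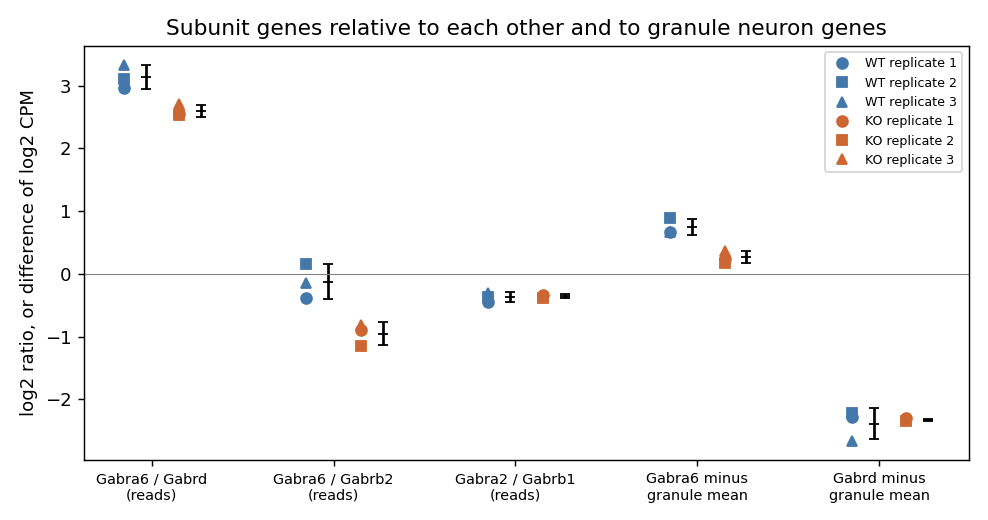
Log2 ratios of reads between subunit genes, and differences between the log2 CPM of Gabra6 or Gabrd and the mean of 18 granule neuron genes, per library, with mean and SD (n = 3). The KO points lie below all WT points where Gabra6 is the numerator (differences of -0.54, -0.83 and -0.48), and overlap them in the remaining pair of comparisons.

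Expressed per length, Gabra6 made up 54.0%, 62.8% and 58.9% of the summed level of the 7 genes in WT (replicates 1, 2 and 3 in turn) against 46.5%, 41.4% and 46.6% in KO. Gabrb2 made up 25.0% ± 2.82 in WT and 34.0% ± 2.05 in KO, and Gabra3 5.41% ± 1.03 and 8.17% ± 1.17 (SD, n = 3 each). The share of Gabrd was 5.78% ± 0.645 in WT and 6.41% ± 0.401 in KO. These shares add to a fixed sum and are given without a test.

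The genes whose profile over the 6 libraries lay nearest to that of Gabra6, by the root mean square difference of centred log2 CPM among 13190 genes, were Uhrf1, an adaptor of DNA methylation (0.0786), Il16, a cytokine precursor with a neuronal form (0.0825), and Tnfsf10, a death ligand (0.0827). The median over all compared genes was 0.401. Il16 averaged 102 ± 16.1 CPM in WT against 69.8 ± 12.9 in KO (SD, n = 3 each), while Uhrf1 and Tnfsf10 stayed under 3 CPM in every library. Nearest to Gabrd were Necab3, a calcium-binding protein gene (0.0562), Fzd7, a Wnt receptor gene (0.0565), and Serinc2 (0.0582), against a median of 0.242. Necab3 was at 39.7 ± 8.18 CPM in WT against 38.9 ± 5.12 in KO (SD, n = 3 each), with its highest value in WT replicate 2, as for Gabrd.

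Around these receptors, genes of GABA signalling were examined in 5 lists. Their counts stand beside 6.43% of all tested genes higher and 10.2% lower in KO by edgeR. The other GABA-A subunit genes comprised 12, of which 10 were tested. None passed by edgeR (3 were higher and 0 lower at an unadjusted p under 0.05), none by DESeq2 or limma-voom, and 2 were higher by limma-voom with sample quality weights and also by edgeR without WT replicate 3. Their log2 fold changes ran from -0.46 to 0.29 with a median of 0.18.

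Of 22 genes that anchor, traffic or modify GABA-A receptors, 6 rose, 0 fell and 16 did not pass by edgeR. Before adjustment, 9 were higher and 0 lower at p under 0.05 by edgeR, and 0 were lower by DESeq2 or limma-voom. Their median was 0.13 on the log2 scale. Lhfpl4, a membrane protein that brings receptors to inhibitory synapses, was at 68.6, 71.1 and 73.2 CPM in WT (replicates 1, 2 and 3 in turn) against 97.2, 105 and 95.0 CPM in KO. It rose by 0.48 on the log2 scale (SE 0.07; adjusted p = 0.00111, edgeR, Benjamini-Hochberg adjusted), and the groups lay far apart. Iqsec3, an exchange factor of inhibitory postsynapses that binds gephyrin, was at 177, 160 and 152 CPM in WT and 220, 236 and 235 CPM in KO. It rose by 0.50 (SE 0.07; adjusted p = 0.00139, edgeR). Gabarapl1, a relative of the receptor-associated protein GABARAP (0.31, SE 0.06), and Trak1, an adaptor of axonal transport (0.28, SE 0.06), rose as well, with adjusted p of 0.00860 and 0.0123 by edgeR. Gphn, the gephyrin scaffold gene, chosen after its value was seen, was at 84.1 ± 1.09 CPM in WT against 78.1 ± 1.41 in KO (SD, n = 3 each), and its log2 fold change of -0.11 (SE 0.06) did not pass (adjusted p = 0.228, edgeR). Without KO replicate 1 the number that rose was 3, and with the covariate of reads outside genes it was 2. The Trak1 call was lost without KO replicate 1 or 3.

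Of 11 genes that make, take up or break down GABA, 3 rose, 0 fell and 8 did not pass by edgeR, with a median of 0.19. Unadjusted p-values under 0.05 by edgeR were found for 8 higher and 1 lower gene, and 0 were lower by DESeq2 or limma-voom. Gad2, a GABA-synthesising enzyme of nerve terminals, rose from 147 ± 18.3 to 188 ± 14.5 CPM (log2 0.36, SE 0.09), Slc32a1, the vesicular GABA transporter, from 121 ± 18.5 to 154 ± 2.46 CPM (0.34, SE 0.10), and Aldh5a1, an enzyme of GABA breakdown, from 128 ± 8.42 to 151 ± 2.71 CPM (0.23, SE 0.07; SD, n = 3 each). Their adjusted p-values by edgeR, Benjamini-Hochberg adjusted were 0.0296, 0.0383 and 0.0382. These calls were fragile: the number that rose was 1 without WT replicate 2, 0 without KO replicate 1, 1 without KO replicate 2, 0 without KO replicate 3 and 0 with the covariate of reads outside genes. With that covariate the log2 value was 0.44 for Gad2, 0.015 for Slc32a1 and 0.091 for Aldh5a1 (adjusted p = 0.165, 0.935 and 0.504, edgeR).

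Of 8 genes of GABA-B receptors, the G protein-coupled receptors for GABA, and their partners, 2 rose, 0 fell and 6 did not pass by edgeR. Without adjustment, 2 were higher and 2 lower at p under 0.05 by edgeR, and 0 were lower by DESeq2 or limma-voom. The risers were the genes of the 2 receptor subunits. Gabbr1 was at 567, 562 and 560 CPM in WT (replicates 1, 2 and 3 in turn) against 692, 693 and 665 CPM in KO (log2 0.28, SE 0.06; adjusted p = 0.00947, edgeR, Benjamini-Hochberg adjusted). Gabbr2 was at 172, 190 and 180 CPM in WT and 250, 226 and 218 CPM in KO (0.35, SE 0.07; adjusted p = 0.00905, edgeR). Both kept their calls without any 1 library, and with the covariate of reads outside genes the log2 values of 0.27 and 0.35 were nearly as large, with a wider SE of 0.08 and 0.10, and did not pass (adjusted p = 0.0558 and 0.0570, edgeR).

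Of 10 genes of chloride transport and its regulation, 1 rose, 1 fell and 8 did not pass, near the 6.43% higher and 10.2% lower over all tested genes. Slc12a5, the neuronal chloride exporter KCC2 that sets the direction of GABA-A currents, was at 433, 407 and 336 CPM in WT (replicates 1, 2 and 3 in turn) against 501, 496 and 470 CPM in KO. It rose by 0.32 (SE 0.09; adjusted p = 0.0363, edgeR), with WT replicate 3 the lowest library. Clcn2, a chloride channel gene, fell by 0.34 (SE 0.08), from 30.3 ± 2.74 to 24.3 ± 1.42 CPM (SD, n = 3 each; adjusted p = 0.0234, edgeR). The call of Slc12a5 was lost without WT replicate 2 or without KO replicate 1, 2 or 3, and with the covariate its value was 0.045. The call of Clcn2 was lost without any 1 library other than WT replicate 3, and was kept with the covariate (-0.51, adjusted p = 0.0134, edgeR).

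**Figure D4:**
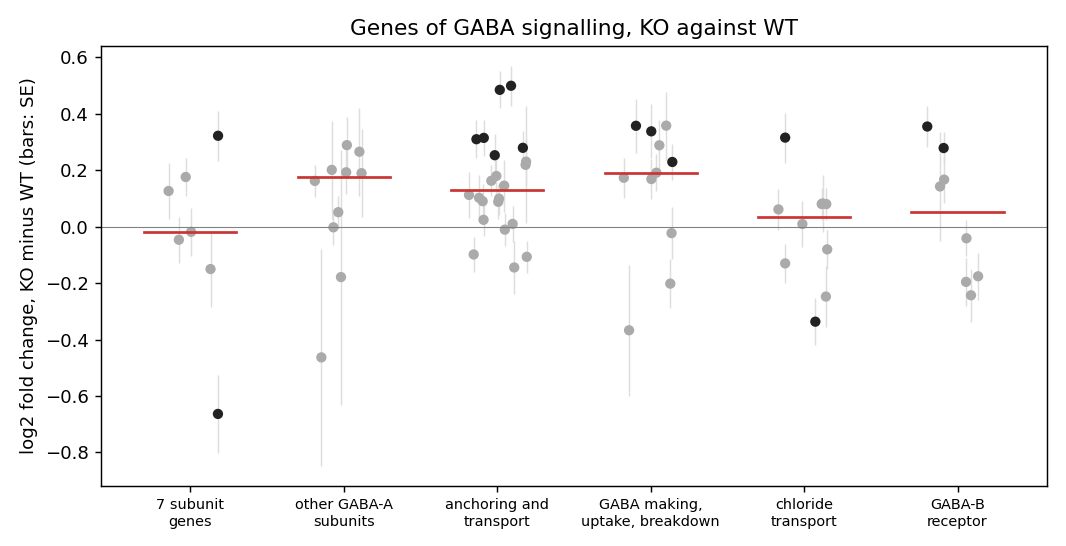
Log2 fold change, KO minus WT, with SE, of every tested gene in the set of 7 subunits and in the 5 lists of GABA signalling genes. Black points passed the threshold, grey points did not, and red lines are medians (-0.019 for the 7 subunits, 0.18, 0.13, 0.19, 0.035 and 0.050 for the lists from left to right).

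Markers of other neurons and of glia moved beside these lists. By edgeR, 6.43% of all tested genes rose and 10.2% fell in KO. Of 15 Purkinje cell genes, 5 rose and 10 did not pass (summed level 4027 to 4972 CPM in WT and 4641 to 5805 CPM in KO), and of 11 genes of molecular layer interneurons 2 fell and 9 did not pass (679 to 775 and 676 to 760 CPM). Of 11 Bergmann glia and astrocyte genes, 3 rose, 1 fell and 7 did not pass (5998 to 6173 and 6607 to 7257 CPM). None of 11 oligodendrocyte genes passed by edgeR (5 were higher and 0 lower at an unadjusted p under 0.05), while 5 were higher by DESeq2 and 3 by limma-voom, with or without sample quality weights. Their summed level was 23878 to 27521 CPM in WT and 30312 to 32264 CPM in KO, without overlap. Of 9 microglia genes, Cx3cr1, a chemokine receptor gene named after its value was seen, rose (log2 0.51, adjusted p = 0.00362, edgeR) and 8 did not pass (211 to 240.5 and 240.6 to 256 CPM). Of 12 genes of vessels, 10 fell and 2 did not pass (311 to 344 and 227 to 234 CPM). Of 12 tested genes of granule cell progenitors, 2 fell and 10 did not pass (1 higher and 5 lower at an unadjusted p under 0.05 by edgeR). The progenitor sum over 13 counted genes was 575 to 623 CPM in WT and 536 to 593 CPM in KO. Reads outside genes differed beside every list, at 34.3% in WT and 17.3% in KO without overlap, so read assignment and genotype cannot be told apart. The part of these cell types in the results above was not tested.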

How the data were processed

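Each library has 1 deposited table of raw read counts by gene. Reads were trimmed with Trimmomatic and counted with STAR on mm10, per the submitters' processing notes; versions, annotation and strandedness were not given in the sources used here. Column 4, the heavier strand (55.4 times the opposite column over all libraries), was used. The 4 summary lines were left out (unmapped reads were 5.97% to 18.2% of a library). After edgeR's filterByExpr 15519 of 24411 genes remained, scaled by TMM (trimmed mean of M values) and tested by edgeR's quasi-likelihood test (edgeR 4.0.16, R 4.3.3, robust) and adjusted by Benjamini-Hochberg over the whole table. The SE is approximate, taken from the log2 fold change and the root of its F statistic. Log2 CPM used a prior count of 2. Exon lengths came from GENCODE M21 (GRCm38), which may differ from the authors' annotation. In simulated counts, 95% of well-counted genes changed 1.5 fold were recovered. The simulation gave all libraries the same mean profile and every gene the same fixed spread. It therefore does not give the recovery in these data, with their own spread and the Rn45s share of WT replicate 3. Ratios were compared by two-sided exact permutation tests over libraries. Alternatives included DESeq2 1.42.0 and limma 3.58.1. Members, lists and rules were chosen with earlier results of these data known. Named were all 7 members, up to 4 called genes with the smallest p per signalling list, 3 granule neuron genes and the 3 nearest profiles each for Gabra6 and Gabrd; some genes are not reported here. Counting intervals do not cover PCR copies.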

Additional observations from a re-analysis of the deposited data

How the results depend on the processing

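With DESeq2, limma-voom with or without sample quality weights, other size factors, no filter, unstranded counts or Rn45s removed, Gabra6 stayed lower and Gabra3 higher past the threshold. Same-numbered WT and KO libraries did not deviate together (correlations across genes of -0.184, -0.14 and -0.0997). These deviations were taken from the mean of only 3 libraries per group and constrain each other, so pairing by number cannot be decided. With the replicate block, 1073 in place of 2585 genes passed over all, with 0 subunit genes higher and 0 lower (Gabra6 at -0.66, adjusted p = 0.0617, and Gabra3 at 0.33, adjusted p = 0.101, by edgeR), 0 of the chloride transport genes higher and 0 lower, 0 GABA-making, uptake and breakdown genes higher and 1 GABA-B gene higher. With the covariate of reads outside genes, 1422 genes passed over all, with 0 subunit genes higher and 0 lower, 2 anchoring genes, 0 chloride transport genes, 0 GABA-making genes and 0 GABA-B genes higher and 1 chloride transport gene lower. Gabra2 was then at 0.0041 and Gabra5 at -1.1e-04, turned in sign, Gabrb1 at -0.11 and Gabrd at -0.41. With sample quality weights 4092 genes passed over all, 6 GABA-making genes and 2 other subunit genes were higher; DESeq2 called 5 GABA-making genes higher, and the absence of a filter 1 other subunit gene. The cause of these shifts was not tested. Leaving out 1 library at a time gave 1041 to 3719 genes over all, 0 to 1 subunit genes higher and 0 to 1 lower, 3 to 7 anchoring genes higher, 0 to 4 GABA-making genes higher, 0 to 1 chloride transport genes higher and 0 to 1 lower, and 0 to 2 other subunit genes higher. The same left-out libraries gave -0.070 to 0.041 for Gabra2, 0.085 to 0.22 for Gabra5, -0.085 to 0.0087 for Gabrb1, -0.26 to 0.013 for Gabrd, -0.15 to 0.14 for Necab3, -0.26 to 0.055 for Fzd7 and -0.23 to 0.037 for Serinc2, -0.024 to 0.050 for the ratio of Gabra2 to Gabrb1 and -0.081 to 0.14 for Gabrd against granule neuron genes. The ratio of Gabra6 to Gabrd stayed at -0.63 to -0.44 and that of Gabra6 to Gabrb2 at -0.96 to -0.69.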
